A study of Mus musculus with 2 samples.

Results

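The 8 transcription factor genes Tcf7, Lef1, Bach2, Satb1, Foxo1, Myb, Id2 and Id3 were followed through the immune cells of the mouse cecum. They were chosen by name, as regulators of naive and stem-like lymphocytes, with earlier results of these data known. They make up 8 of the 55487 genes counted. Cells sorted for the leukocyte surface protein CD45 came from 2 Trpv1-ADC mice and 2 littermate CTRL mice, all males aged 101 days. Every mouse had received an adeno-associated virus (AAV) into the peritoneum as a newborn and then 7 injections of clozapine-N-oxide (CNO), the drug that switches on designer receptors, 1 on every other day. The study asked what activation of Trpv1+ sensory neurons does to gut immune cells. Its labels give the strain of the run as "Trpv1-WT.B6 & Trpv1-Cre.B6", without saying which mouse carried Cre, and what the virus carried is not given in the sources used here. Each mouse was marked with its own DNA-coded antibody and all 4 were run together, so the mouse is the replicate (n = 2 per group).

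Tcf7 (encoding TCF1) and Lef1 are HMG-box factors at the end of the Wnt pathway that, in T cells, keep naive and memory cells able to renew. Bach2 is a repressor that holds back effector genes in T and B cells. Satb1 folds chromatin in thymocytes and naive T cells. Foxo1 is the forkhead factor that growth factor and antigen receptor signals exclude from the nucleus, and it drives homing and survival receptors of resting lymphocytes. Myb supports progenitors and is also used by stem-like T cells. Id2 and Id3 lack a DNA-binding region and block E proteins by pairing with them: Id2 is known for innate lymphocytes, dendritic cells and effector T cells, and Id3 for naive and stem-like T cells.

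4 promoters are shown because their genes passed the test between the groups, described further on: Bach2, Satb1 and Myb in intraepithelial-type T cells, and Id2 in regulatory T cells and macrophages. Each sequence runs 5′ to 3′ from 250 bases before to 50 bases after the RefSeq start of transcription (GRCm38.p6) that lies nearest to the GENCODE start of the gene. Capitals mark matches on either strand to 5 motifs: TCF/LEF (CTTTGAT or CTTTGTT), FOXO (GTAAACA), BACH (TGAGTCA), the E-box (CANNTG) and MYB (CAACGG or CAACTG or TAACGG or TAACTG).
Bach2 promoter, chr4:32417185-32417484, + strand: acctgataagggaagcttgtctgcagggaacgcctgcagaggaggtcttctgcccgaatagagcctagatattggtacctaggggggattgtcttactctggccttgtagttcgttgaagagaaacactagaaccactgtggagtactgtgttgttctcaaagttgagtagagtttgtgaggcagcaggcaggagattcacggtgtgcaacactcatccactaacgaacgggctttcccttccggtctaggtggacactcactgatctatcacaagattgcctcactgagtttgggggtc
Satb1 promoter, chr17:51833241-51833540, - strand: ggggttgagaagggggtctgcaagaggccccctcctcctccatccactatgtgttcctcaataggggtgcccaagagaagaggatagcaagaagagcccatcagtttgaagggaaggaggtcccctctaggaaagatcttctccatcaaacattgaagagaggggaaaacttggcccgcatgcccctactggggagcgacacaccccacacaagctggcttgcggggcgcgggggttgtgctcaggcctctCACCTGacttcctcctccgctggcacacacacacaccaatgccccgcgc
Myb promoter, chr10:21160935-21161234, - strand: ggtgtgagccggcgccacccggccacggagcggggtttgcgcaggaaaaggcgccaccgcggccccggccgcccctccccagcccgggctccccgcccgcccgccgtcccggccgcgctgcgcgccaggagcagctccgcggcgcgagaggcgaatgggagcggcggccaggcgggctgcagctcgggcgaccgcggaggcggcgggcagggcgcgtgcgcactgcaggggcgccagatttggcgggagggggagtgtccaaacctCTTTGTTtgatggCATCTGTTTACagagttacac
Id2 promoter, chr12:25096043-25096342, - strand: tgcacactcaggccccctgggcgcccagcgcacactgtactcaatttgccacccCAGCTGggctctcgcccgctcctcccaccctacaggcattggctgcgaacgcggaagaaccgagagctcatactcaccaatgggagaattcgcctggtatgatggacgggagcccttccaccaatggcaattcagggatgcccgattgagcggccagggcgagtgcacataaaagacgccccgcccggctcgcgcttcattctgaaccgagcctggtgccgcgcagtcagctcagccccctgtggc
The Bach2 window held none of the 5 motifs, and its RefSeq start lies 178631 bases downstream of the GENCODE start. The Satb1 window held 1 E-box, CACCTG at base 252, counted from the first base printed. The Myb window held a TCF/LEF match (CTTTGTT at base 267), an E-box (CATCTG at 280) and a FOXO match on the other strand (TGTTTAC at 284), which overlaps the E-box. The Id2 window, 1048 bases from the GENCODE start, held an E-box (CAGCTG at base 55). Of all 32851 RefSeq promoter windows of this length, 9.33% held the TCF/LEF motif, 3.65% the FOXO motif, 5.20% the BACH motif, 72.3% an E-box and 28.3% a MYB motif. Of the other 4 windows, none held a TCF/LEF, FOXO or BACH match and 1, that of Foxo1, held a MYB match.

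After filtering, 17519 cells remained, 4430 and 4531 from the Trpv1-ADC mice and 4393 and 4165 from the CTRL mice. They carried 27586172 to 29905834 unique molecular identifiers (UMIs, each standing for 1 captured RNA) per mouse, with medians of 5553 to 5689 UMIs per cell. Clusters were named from marker genes, by a rule settled after the clusters had been seen, and each class name stands for cells like that type. None of the 8 genes was a marker or was used for clustering. Tests were run in the 14 immune classes that every mouse filled with 20 cells or more. CTRL 1 held fewer follicular helper T cells (105, against 308 to 412 in the other mice) and interferon-signature lymphocytes (11, against 81 to 109). It held more type 3 gamma delta T cells (49, against 18 to 26), fibroblasts (199, against 95 to 112) and cells of an unnamed cluster with few UMIs, T11 (139, against 20 to 79). In spite of the CD45 sort, 505 cells looked like fibroblasts, 126 like endothelial and 43 like epithelial cells. They and the other classes that were not named or too small (unnamed clusters, plasma cells, neutrophils, mast, cycling, interferon-signature, type 3 gamma delta T and migratory dendritic cells) entered the pools but no class test. All levels are CPM, which are counts (here UMIs) per 1e6 of the summed UMIs of a class in 1 mouse, given as mean ± SD over the 4 mice unless the mice are listed, and they are not comparable between genes. Orders of levels run over the 14 tested classes only. SDs and ranges over the 4 mice take both groups together, so they include any difference between the groups.

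The HMG-box pair was highest in CD4 T cells. Tcf7, on chromosome 11 (52252371 to 52283014, GRCm38), reached 697 ± 57.9 CPM in follicular helper T cells (n = 4 mice) and 622 ± 23.9 in naive CD4 T cells, and the ranges of these classes over the mice overlapped. Naive CD8 T cells had 483 ± 21.4, memory CD8 T cells 424 ± 23.7 and natural killer cells or group 1 innate lymphoid cells (NK cells or ILC1) 288 ± 14.2. This last class is mixed: clustering at resolution 2 placed 256 of its 865 cells (29.6%) in a class like group 3 innate lymphoid cells (ILC3), led by Dscam, Zmat4 and Il23r, with Tcf7 at 337 ± 39.7 CPM there and 257 ± 21.0 CPM in the NK cells or ILC1 of that clustering. Effector or memory CD4 T cells (280 ± 39.8) and intraepithelial-type T cells (278 ± 37.8) came next and overlapped. Regulatory T cells (172 ± 27.1) and group 2 innate lymphoid cells (ILC2, 168 ± 36.7) had the lowest levels among T and innate lymphoid cells. B cells, dendritic cells, monocytes and macrophages stayed between 7.51 CPM, in macrophages, and 24.4 CPM, in type 1 conventional dendritic cells (cDC1).

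Lef1, on chromosome 3 (131110471 to 131224356), separated naive cells from the rest more sharply. It had 1764 ± 147 CPM in naive CD4 and 1570 ± 67.4 in naive CD8 T cells, and the 2 classes overlapped over the mice. Memory CD8 T cells followed with 487 ± 32.8 and did not overlap with their neighbours on either side. Regulatory (196 ± 28.8), follicular helper (186 ± 13.95), intraepithelial-type (140 ± 32.9) and effector or memory CD4 T cells (131 ± 26.1) lay lower. B cells had 34.3 ± 1.25 and type 2 conventional dendritic cells (cDC2) the least, 9.17 ± 4.70.

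Bach2, on chromosome 4 (32238804 to 32586108), was high in naive CD4 T cells (2316 ± 249 CPM), B cells (2076 ± 189) and naive CD8 T cells (1709 ± 169), of which each overlapped with the next. Memory CD8 T cells had 1266 ± 142 and regulatory T cells 970.5 ± 39.0. Follicular helper T cells (849 ± 137), NK cells or ILC1 (716 ± 122), effector or memory CD4 T cells (631 ± 238), intraepithelial-type T cells (511 ± 169) and ILC2 (509 ± 111) had lower means. From regulatory T cells down to ILC2, each class overlapped with the next over the mice. Monocytes were at the bottom with 83.6 ± 17.6.

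Satb1, on chromosome 17 (51736187 to 51833290), had nearly the order of Bach2. Naive CD4 T cells had 2510 ± 323 CPM, naive CD8 T cells 1938 ± 230, B cells 1866 ± 199 and memory CD8 T cells 1702 ± 51.1. The next class, follicular helper T cells, had 754 ± 244 and did not overlap with memory CD8 T cells. Intraepithelial-type T cells had the least of the T cells (321 ± 78.9), and monocytes the least of all (32.8 ± 17.5).

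Foxo1, on chromosome 3 (52268336 to 52353221), was not highest in naive cells. Intraepithelial-type T cells had the top mean, 951 ± 443 CPM, with the widest spread, and overlapped with regulatory T cells (906 ± 63.9). The top rank held in CTRL mice only. In intraepithelial-type T cells both CTRL mice lay above, and both Trpv1-ADC mice below, the range of regulatory T cells (832 to 963 CPM). Follicular helper T cells had 718 ± 39.3, naive CD4 T cells 547 ± 57.5, B cells 520 ± 84.7, naive CD8 T cells 398 ± 23.4 and memory CD8 T cells 376 ± 27.6. Monocytes (56.8 ± 11.2) and macrophages (57.7 ± 9.68) were lowest.

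Myb, on chromosome 10 (21124935 to 21160984), was highest in follicular helper T cells (370 ± 119 CPM), naive CD4 T cells (280.5 ± 61.4) and naive CD8 T cells (223 ± 54.0), which overlapped in that order. Memory CD8 T cells had 167 ± 32.7, and regulatory (74.5 ± 6.25) and intraepithelial-type T cells (34.5 ± 15.5) less. Macrophages had 3.44 ± 0.78.

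The inhibitors ran differently. Id2, on chromosome 12 (25093799 to 25097140), was, among the 14 tested classes, highest in ILC2 (1000.3 ± 130 CPM) and NK cells or ILC1 (721 ± 73.7; 649 ± 51.8 in their ILC3-like cells and 757 ± 89.5 in the rest at resolution 2). These 2 classes did not overlap with each other. It was next highest in cDC1 (435 ± 146), monocytes (399.6 ± 126) and effector or memory CD4 T cells (389 ± 47.1). Naive CD4 T cells (81.9 ± 6.28) and B cells (66.4 ± 9.71) had the least. Id3, on chromosome 4 (136143497 to 136145755), was low in naive T cells (20.9 ± 5.57 in CD4 and 19.5 ± 8.25 in CD8) and highest in intraepithelial-type T cells (168 ± 77.3) and macrophages (91.0 ± 22.7). All 13 pairs of neighbouring classes in the Id3 order overlapped over the mice, against 8 to 11 of the 13 for the other genes. No step of the Id3 order thus exceeded the spread over the 4 mice, which includes the difference between the groups.

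The share of cells with at least 1 UMI, after each cell was thinned to 2000 UMIs (601 shallower cells left out), gave the same top class for 7 of the 8 genes. For Tcf7 it was 69.4% of follicular helper T cells (92.1% before thinning) and 1.68% of B cells (3.97% before thinning), where median depths were 5488 and 4340 UMIs. Bach2 was caught in 96.7% of naive CD4 T cells and in 16.6% of monocytes. Id3 was caught in 19.9% of intraepithelial-type T cells and in 2.87% of regulatory T cells. For Foxo1 the share was highest in regulatory T cells, 72.7%, against 58.9% in intraepithelial-type T cells. RNA set free from broken cells can add UMIs to any cell, so the lowest shares may hold background. How much of them is background was not tested.

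**Figure D1:**
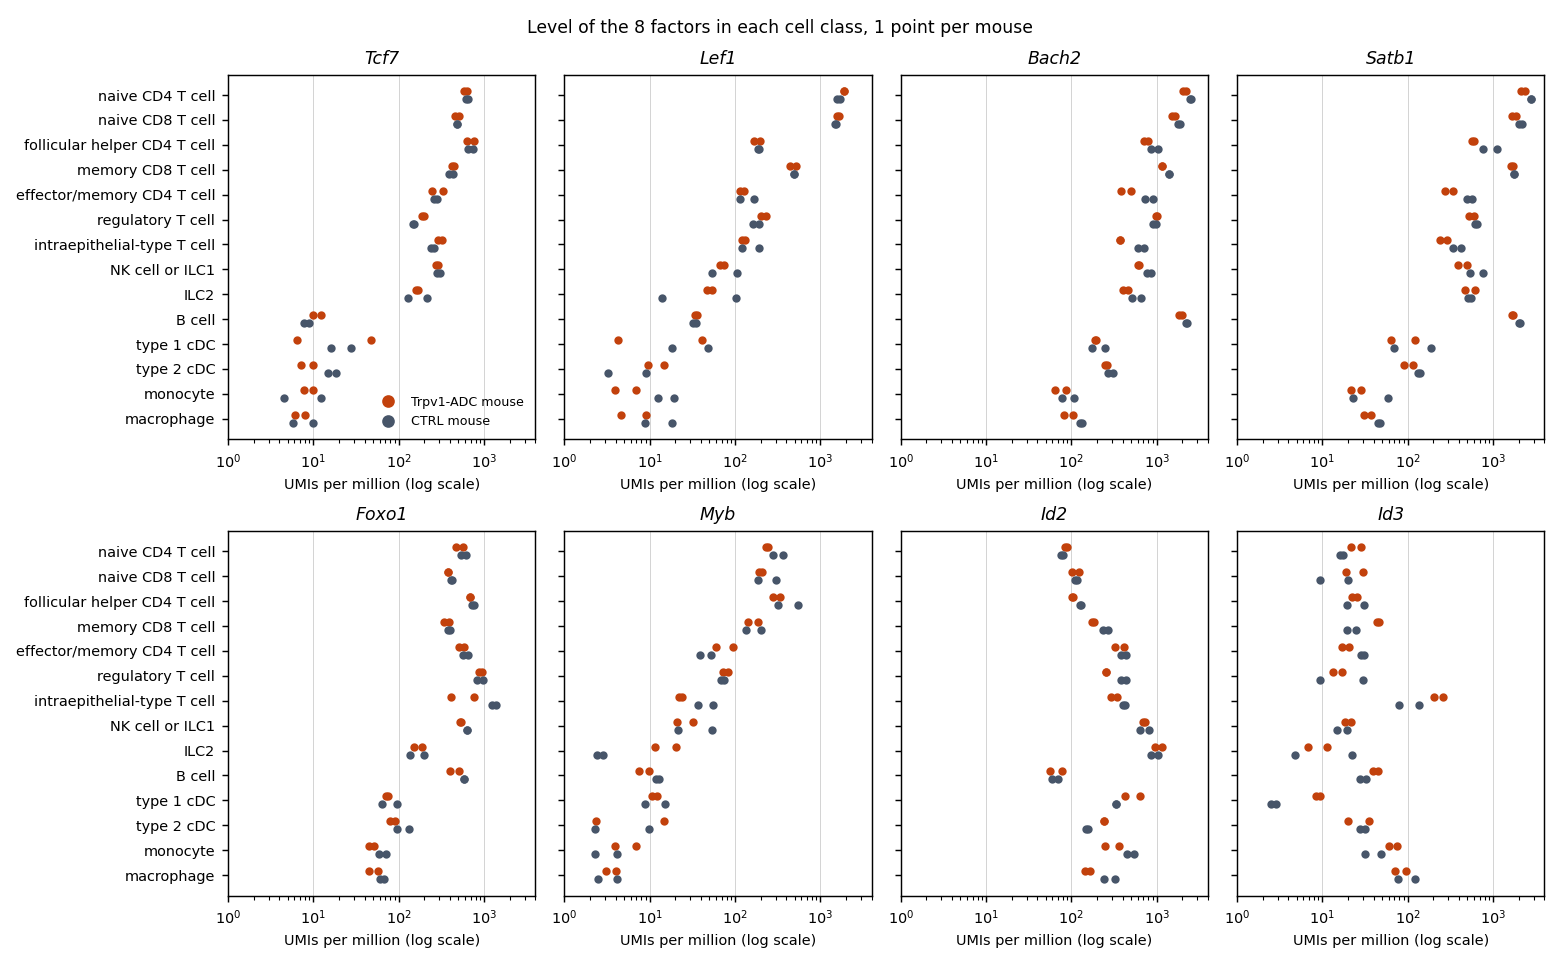
Level of each factor (x axis, CPM, log scale) in each tested cell class (rows), 1 point per mouse, Trpv1-ADC mice above CTRL mice. Lef1, Bach2 and Satb1 average 1570 to 2510 CPM in naive T cells, while, among these classes, Id2 peaks in ILC2 and Id3 in intraepithelial-type T cells.

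Across the means of the 14 classes, on the log2(CPM + 1) scale, Bach2 and Satb1 had a Pearson correlation of 0.99 and Lef1 and Myb of 0.92. Id2 had correlations from -0.49, with Bach2, to 0.00 with Tcf7. All classes share the same 4 mice and 1 run, so these values describe an order of classes and carry no test. Of the 8914 genes with at least 20 CPM in some class, the 5 most like Tcf7 were Skap1, Trbc2, Prkcq, Trbc1 and Camk4, genes of the T cell receptor and its signalling (r 0.97 to 0.98). Lef1 was followed most closely by Slc25a40, Gm42449, Taf4b, Dbf4 and Dusp10. The 5 nearest Id2 were Spcs2, Edf1, Cnnm2, Ntng2 and Furin (0.88 to 0.91) and the 5 nearest Id3 were Stard7, Pdhb, Diaph2, Chka and Gabpa (0.79 to 0.85). Myb went with 2010016I18Rik, Dnah8, Spred2, Ehd3 and Rnf19a (0.95 to 0.96).

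Several of the nearest genes lie inside the members. The 5 nearest Satb1, all at r 0.99 or above, were E430014B02Rik, C230085N15Rik, Gm37248, 5830444F18Rik and Gm36931, and each is annotated inside Satb1 on its strand. The 5 nearest Bach2 were Satb1 itself and 4 of these genes. Gm38034, nearest to Foxo1 (0.99), lies within Foxo1, and Gm42449 within Lef1, again on the same strand. Rsbn1, Ctdspl2, Oga and Trim39 completed the Foxo1 group (0.96 to 0.97). Reads inside such pairs could be given to either name by the counting, so the likeness of an inside gene to its host is uncertain as a measurement of a separate RNA.

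Trpv1-ADC mice were then set against CTRL mice within each class with the edgeR quasi-likelihood test on UMIs summed per mouse, with p values adjusted over all genes of the class (Benjamini-Hochberg) and a threshold of 0.05. Of the 112 pairs of factor and class, 13 had too few UMIs to test. Of the 99 tested, 5 passed, where 0.677% of all 117948 tested pairs of gene and class were called lower. All 5 were lower in Trpv1-ADC mice: Bach2, Satb1 and Myb in intraepithelial-type T cells, Id2 in regulatory T cells and Id2 in macrophages. 38 of the 99 pairs had an unadjusted p under 0.05, beside 10.3% of all pairs of gene and class. DESeq2 gave 7 passing pairs, 4 of them among these 5, where 0.776% of all pairs with an adjusted p were called; it left out Myb and added Bach2 in effector or memory CD4, Satb1 in follicular helper and Id3 in intraepithelial-type T cells. With 2 mice a group, an exact permutation test on 1 value cannot go below p = 0.333, so every call rests on the spread that edgeR shares across genes. The p values measure the spread between these mice, which were littermates of 1 run.

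**Figure D2:**
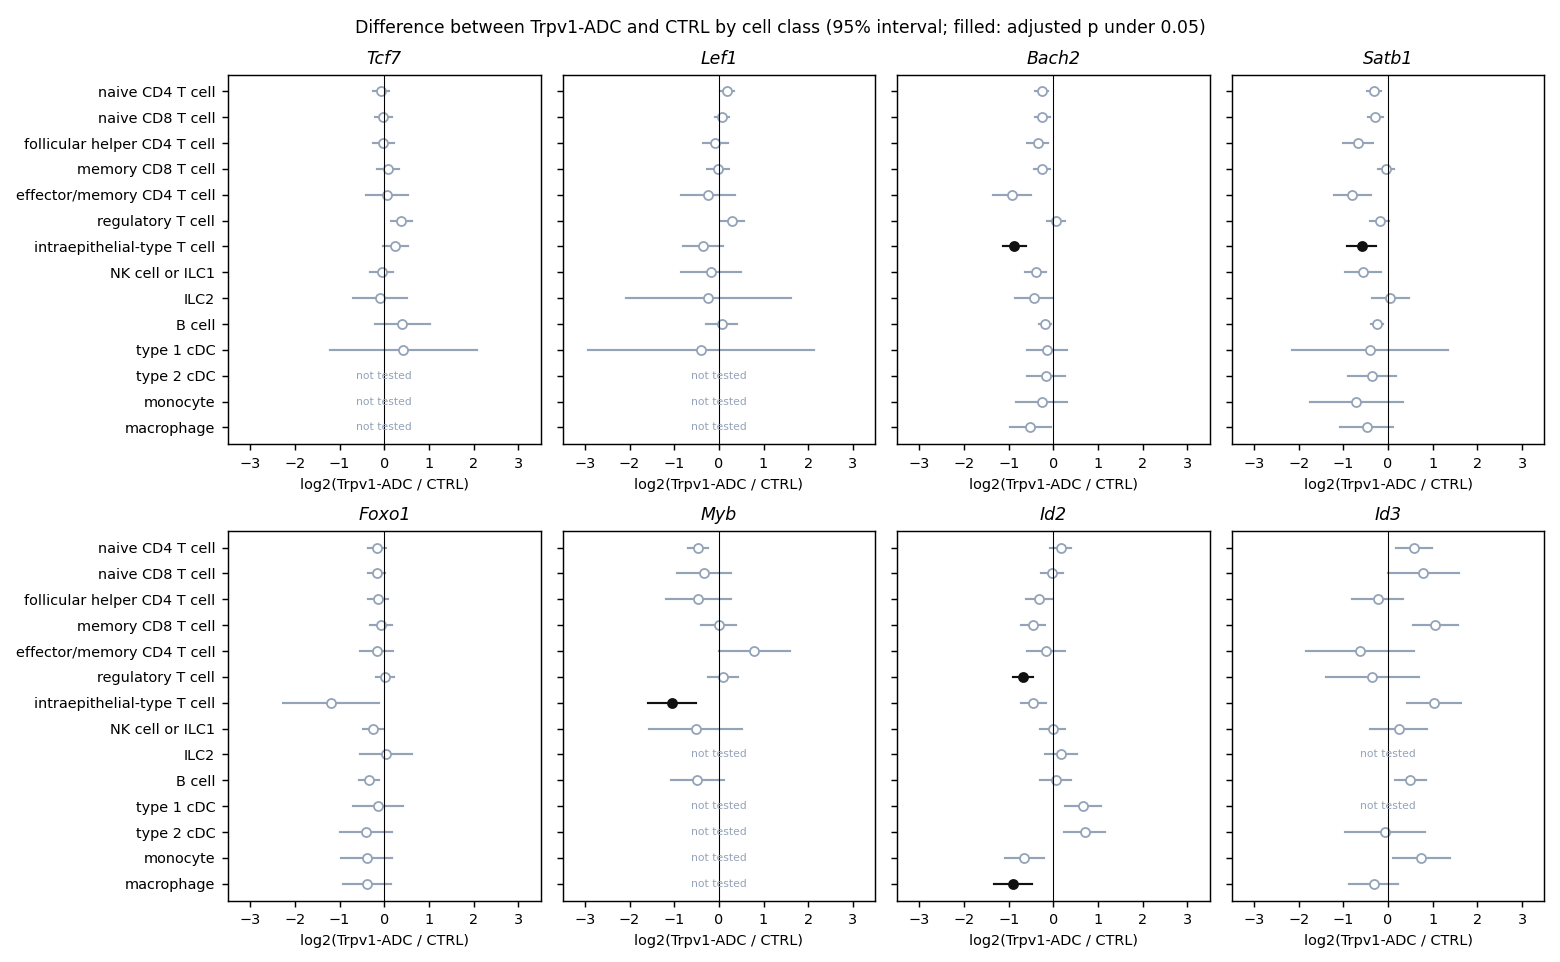
Difference between Trpv1-ADC and CTRL mice for each factor (x axis, log2 ratio) in each class (rows), with 95% intervals. Filled points passed the edgeR threshold after adjustment; all 5 lie left of 0, and Bach2 and Satb1 lie left of 0 in 13 of 14 classes each.

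Intraepithelial-type T cells, with Cd160, Itgae and granzymes among their markers, held 280 and 212 cells in Trpv1-ADC mice against 443 and 581 in CTRL mice. Granzymes and Itgae were among the leading genes of the smaller cluster (T8, 518 cells) and not of the larger one (T4, 998 cells). The naming rule found 7 of the 9 class markers detected in T4 and 9 in T8. In this class 3 of the 8 factors were called lower, where 4.12% of the 10351 genes tested were called lower and 4.1% higher. Bach2 had 371 and 368 CPM in Trpv1-ADC mice, against 706 and 597 CPM in CTRL mice. The groups were far apart, with a log2 fold change of -0.88 ± 0.12 (SE; edgeR adjusted p = 0.0016). At 2000 UMIs per cell, Bach2 was caught in 39.9% and 39.8% of these cells in Trpv1-ADC mice, against 62.2% and 54.9% in CTRL mice, and the exact 95% binomial intervals of the groups did not overlap (33.2 to 46.8% against 50.7 to 66.7%; counting error only).

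Satb1 had 287 and 237 CPM in intraepithelial-type T cells of Trpv1-ADC mice, against 421 and 340 CPM in those of CTRL mice, without overlap (-0.59 ± 0.15, edgeR adjusted p = 0.027). Of the genes annotated inside it, C230085N15Rik (-0.84) and 5830444F18Rik (-0.88) also fell in the same class and may share its reads. Myb had 23.9 and 21.8 CPM in Trpv1-ADC mice, against 55.5 and 36.9 CPM in CTRL mice (-1.05 ± 0.25, edgeR adjusted p = 0.023), again without overlap. Without CTRL 1 the estimates were -0.76 for Bach2 (adjusted p = 0.012), -0.44 for Satb1 (0.29) and -0.75 for Myb (0.22); without Trpv1-ADC 2 those of Satb1 (-0.44, 0.066) and Myb (-0.97, 0.090) missed the threshold as well.

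The other 5 factors did not pass in intraepithelial-type T cells. Foxo1 had 768 and 415 CPM in Trpv1-ADC mice, against 1389 and 1231 CPM in CTRL mice, and the Trpv1-ADC mice differed so much from each other that the estimate of -1.19 ± 0.36 had an adjusted p of 0.18. Gm38034, inside Foxo1, did pass, with 64.7 and 35.8 CPM against 122 and 114 CPM (-1.26 ± 0.21, adjusted p = 0.0062). Id2 had 342 and 290 CPM in Trpv1-ADC mice, against 401 and 431 CPM in CTRL mice (-0.45, 0.051). Id3 ran the other way, with 257 and 201 CPM in Trpv1-ADC mice against 80.1 and 134 CPM in CTRL mice (1.03 ± 0.25, adjusted p = 0.055). Tcf7 (0.25, 0.26) and Lef1 (-0.35, 0.33) were further from the threshold.

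Of 15 tested dissociation and stress genes, 3 rose and 1 fell in the same cells (median log2 change 0.04; 0.00 over all genes). The summed level of the list was 27973 and 21473 CPM in intraepithelial-type T cells of Trpv1-ADC mice, against 19771 and 20446 CPM in those of CTRL mice. The immediate early gene Jun (1.01) and the heat shock genes Hspa1a (0.66) and Hspa1b (0.68) rose, and Junb (-0.72) fell. The 6 naive CD4 markers, all detected, summed to 357 and 362 CPM in Trpv1-ADC mice against 295 and 311 CPM in CTRL mice. These 6 did not move together. Klf2 had 280 and 280 CPM in Trpv1-ADC mice against 140 and 189 CPM in CTRL mice. Ccr7 (25.3 and 30.5 against 53.1 and 51.9 CPM) and S1pr1 (30.2 and 27.9 against 58.4 and 46.9 CPM) were lower. The 9 monocyte markers, all detected, summed to 242 and 257 CPM against 347 and 353 CPM. The marker sums carry no test. The part of any of these in the differences of the 8 factors was not tested.

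In regulatory T cells, with Foxp3, Il2ra and Ctla4 among their markers, 1 of the 8 factors was called, Id2, where 0.353% of 9621 tested genes were called lower. Id2 had 257 and 258 CPM in Trpv1-ADC mice, against 385 and 435 CPM in CTRL mice. The Trpv1-ADC mice were nearly equal and both below the CTRL mice, with a log2 fold change of -0.68 ± 0.10 (edgeR adjusted p = 0.0024). Leaving out any 1 mouse gave -0.76 to -0.60, all past the threshold. Tcf7 had 199.7 and 190.4 CPM in Trpv1-ADC mice against 151 and 147 CPM in CTRL mice (0.38 ± 0.11, adjusted p = 0.17), and Lef1 205 and 231 CPM against 189 and 162 CPM (0.30 ± 0.12, 0.37). Neither passed, and Bach2 (0.06), Foxo1 (0.02) and Myb (0.09) had estimates near 0.

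In macrophages, with the C1q genes, Adgre1 and Csf1r among their markers, 1 of the 5 factors tested was called, Id2, where 2.81% of 8013 tested genes were called lower. It had 165 and 143 CPM in Trpv1-ADC mice, against 323 and 241 CPM in CTRL mice (-0.90 ± 0.20, edgeR adjusted p = 0.023). The call was lost without CTRL 1 (-0.70, adjusted p = 0.14), Trpv1-ADC 1 (-1.01, 0.075) or Trpv1-ADC 2 (-0.82, 0.13). Id2 had the same sign in monocytes, 366 and 245 CPM against 445 and 542 CPM (-0.65, adjusted p = 0.47), and the opposite sign in cDC1, 429 and 643 CPM against 337 and 330 CPM (0.67, 0.12), and in cDC2, 242 and 244 CPM against 148 and 155 CPM (0.70, 0.32). None of these 3 passed.

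**Figure D3:**
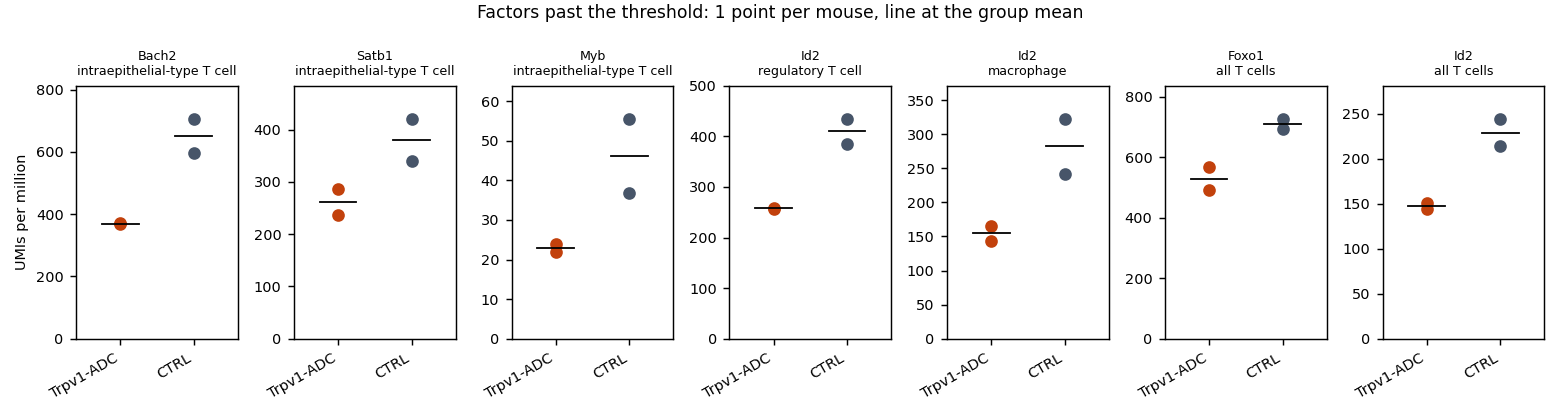
CPM of each factor in the class or pool where it passed the edgeR threshold, 1 point per mouse, with a line at the group mean. Every Trpv1-ADC mouse lies below every CTRL mouse in all 7 panels; Bach2 in intraepithelial-type T cells had 371 and 368 against 706 and 597.

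Within the clusters that make up these classes, Bach2 was lower in both intraepithelial-type clusters. The cluster led by Cd7, Ikzf2 and Klrd1 (T4) had 413 and 432 CPM in Trpv1-ADC mice against 874 and 677 CPM in CTRL mice (-0.93 ± 0.15, edgeR adjusted p = 0.0025), and the one led by Ccl5, Gzma and Gzmb (T8) had 245 and 207 CPM against 417 and 476 CPM (-1.003 ± 0.18, 0.0091). Of all genes tested in these clusters, 3.5% and 0.835% were called lower. Satb1 and Myb passed in T4 (-0.69, 0.022, and -1.22, 0.026) and not in T8 (-0.66, 0.17, and -0.75, 0.49). T4 made up 75.0% and 70.8% of the class in Trpv1-ADC mice and 63.0% and 61.8% in CTRL mice. In regulatory T cells, Id2 passed in the cluster led by Il10, Ctla4 and Maf (T6), with 251 and 244 CPM against 408 and 474 CPM (-0.84 ± 0.12, adjusted p = 0.0035), and not in the one led by Lrrc32, Ikzf2 and Tnfrsf4 (T9), with 268 and 278 CPM against 342 and 339 CPM (-0.33 ± 0.15, 0.65). In T6 0.22% and in T9 0.0154% of the genes tested were called lower. That T6 and T9 differ was not tested.

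Macrophage clusters were unevenly filled and too small to test. The cluster led by Lyz2, Apoe and Tgfbi (M2) held 40.4% and 70.5% of macrophages in Trpv1-ADC mice against 10.3% and 7.30% in CTRL mice, and the one with Lyz2 and Lgmn among its leading genes (M0) held 25.5% and 13.6% against 63.2% and 59.1%. Id2 was at 112 and 142 CPM in M2 of Trpv1-ADC mice against 166 and 104 CPM in M2 of CTRL mice, and at 287 and 202 CPM in M0 against 299 and 295 CPM. It was at 139 and 58.2 CPM in M7 against 439 and 76.9 CPM, and at 248 and 189 CPM in M12 against 182 and 169 CPM. Both Trpv1-ADC mice were thus below the CTRL mice in M0 and above them in M12, and the groups overlapped in M2 and M7. With the cluster shares of macrophages held at their mean over the 4 mice, Id2 was at 194 and 152 CPM in Trpv1-ADC mice against 275 and 180.0 CPM in CTRL mice, and the groups overlapped; the log2 ratio of group means was -0.39, beside -0.87 as measured. Held in the same way, Bach2 in intraepithelial-type T cells had a log2 ratio of -0.90, beside -0.82 as measured, and Id2 in regulatory T cells -0.66, beside -0.67. Monocyte markers (9 of 9 detected) summed to 8299 and 12791 CPM in macrophages of Trpv1-ADC mice, against 6910 and 7013 CPM in those of CTRL mice, and the stress list to 24121 and 20510 CPM against 18641 and 17788 CPM. Median UMIs per macrophage were 6301 and 7611 in Trpv1-ADC mice against 4624.5 and 4874 in CTRL mice. Macrophages under 2000 UMIs numbered 15 of 161 and 6 of 88 in Trpv1-ADC mice against 49 of 234 and 28 of 137 in CTRL mice. Their median mitochondrial share was 2.48% and 2.63% in Trpv1-ADC mice against 1.87% and 2.27% in CTRL mice. The part of these markers, genes, depths and mitochondrial shares in the Id2 value was not tested.

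**Figure D4:**
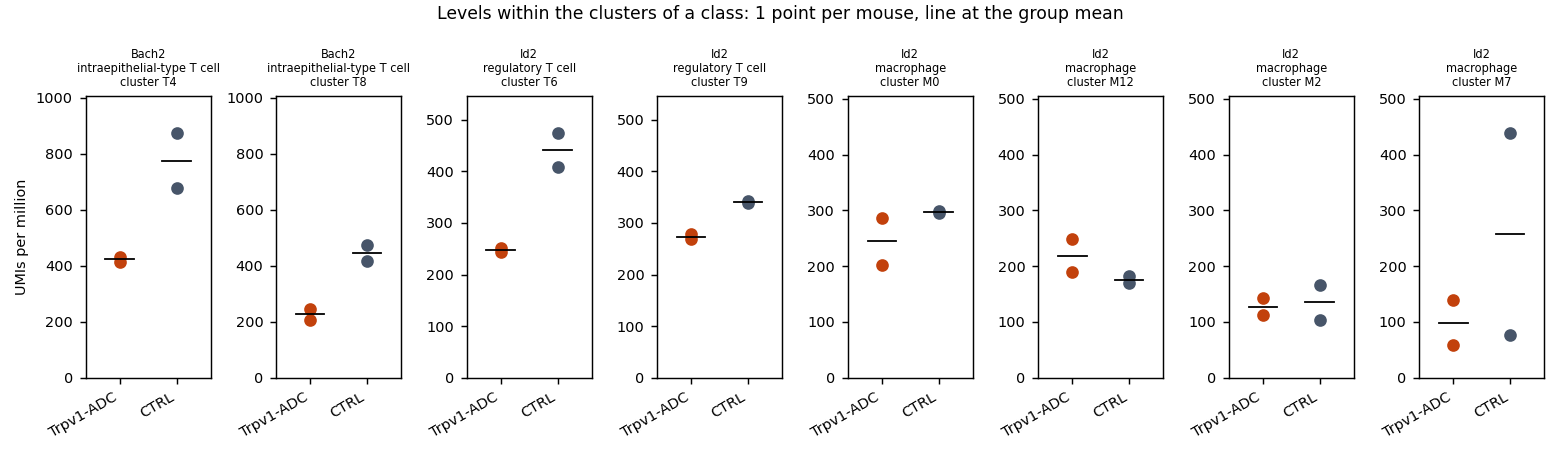
CPM within each cluster of the 3 classes, 1 point per mouse and a line at the group mean, for Bach2 in intraepithelial-type T cells and Id2 in regulatory T cells and macrophages. Bach2 is lower in Trpv1-ADC mice in both intraepithelial-type clusters, while Id2 overlaps between the groups in macrophage clusters M2 and M7 and is higher in Trpv1-ADC mice in M12.

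Over the other 11 classes none of the 8 factors was called. Few genes of any kind were called there: 0% of those tested in effector or memory CD4 T cells, 0.027% in monocytes, 0.0521% in follicular helper T cells, 0.0754% in naive CD8 T cells, 0.105% in ILC2 and 0.123% in B cells. The share was 0.181% in naive CD4 T cells, 0.195% in memory CD8 T cells, 0.242% in cDC2, 0.663% in NK cells or ILC1 and 1.13% in cDC1. Bach2 estimates were below 0 in 13 of 14 classes. Of all genes tested in a class, 48.6% (cDC1) to 50.3% (follicular helper T cells) had estimates below 0. In effector or memory CD4 T cells, with 43 to 77 cells a mouse, Bach2 had 501 and 379 CPM in Trpv1-ADC mice against 914 and 729 CPM in CTRL mice, an estimate as large as in intraepithelial-type T cells (-0.93 ± 0.19) that did not pass (adjusted p = 0.14). Satb1 was below 0 in 13 of 14 classes too. In naive CD4 T cells it had 2395 and 2105 CPM against 2790 and 2749 CPM (-0.31 ± 0.07, adjusted p = 0.082), and in follicular helper T cells 605 and 560 CPM against 1099 and 754 CPM (-0.68, 0.27). E430014B02Rik, inside Satb1, did pass in naive CD4 T cells (-0.57 ± 0.10, adjusted p = 0.0093). The groups filled the naive CD4 clusters unequally: cluster T3 held 32.9% and 52.7% of the class in Trpv1-ADC mice against 12.5% and 24.2% in CTRL mice, and T1 held the rest. Satb1 was lower in T3 than in T1 in every mouse. Within T1, Satb1 had 2595 and 2410.2 CPM in Trpv1-ADC mice against 2879 and 2887 CPM in CTRL mice (-0.21, edgeR adjusted p = 0.75), and within T3 1983 and 1822 CPM against 2190.1 and 2323 CPM (-0.27, 0.92). The E430014B02Rik call was lost within T1 (-0.42, 0.36) and T3 (-0.59, 0.89), where 0% of genes were called lower. The classes come from the same 4 mice, so such counts are not independent.

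Foxo1 estimates were below 0 in 12 of 14 classes, and Myb estimates in 7 of the 9 classes where it could be tested. Myb had the largest positive estimate in effector or memory CD4 T cells, 59.5 and 95.5 CPM against 52.5 and 39.2 CPM (0.79, adjusted p = 0.59). Tcf7 (6 of 11 above 0) and Lef1 (4 of 11 above 0) had no common direction. Id3 estimates were above 0 in 7 of 12 classes, among them memory CD8 T cells, with 46.0 and 43.5 CPM in Trpv1-ADC mice against 19.2 and 24.5 CPM in CTRL mice (1.06 ± 0.24, adjusted p = 0.11), and naive CD4 T cells (0.58, 0.36; 0.29 within T1 and 0.12 within T3). Over all 99 pairs the median estimate was -0.17, beside a median of 0.00 to 0.01 over all genes in the classes with a call. Values within B cells were set across a shift of clusters: B0 held 37.4% and 23.3% of B cells in Trpv1-ADC mice against 4.44% and 19.2% in CTRL mice, and B1 12.9% and 46.1% against 4.26% and 5.90%.

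In the pool of all T cells, 2 of the 8 factors were lower, where 1.25% of 15230 tested genes were called lower. Id2 had 151 and 145 CPM in Trpv1-ADC mice, against 214 and 245 CPM in CTRL mice (-0.62 ± 0.08, edgeR adjusted p = 0.0029), and passed without any 1 mouse. Foxo1 had 567 and 491 CPM, against 695 and 728 CPM (-0.42 ± 0.09, 0.036), and did not pass without Trpv1-ADC 1 (-0.53, 0.071) or Trpv1-ADC 2 (-0.31, 0.30). Lef1 had 1105 and 1118 CPM against 903 and 730 CPM (0.45 ± 0.10, 0.067). Over all cells kept, 0 of the 8 passed with edgeR, where 0.245% of 18783 genes were called. At an unadjusted p under 0.05 it was 5 of the 8, beside 18.2% of all genes. DESeq2 called 4, where it called 4% of all genes. The nearest were Tcf7, with 348 and 333 CPM against 263 and 265 CPM (0.38, adjusted p = 0.069), Lef1, with 690 and 742 CPM against 500.1 and 409.5 CPM (0.67, 0.075), and Id2, with 192 and 203 CPM against 246 and 268 CPM (-0.37, 0.093).

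The pools mix levels with class shares. Naive CD4 T cells were 19.1% and 21.6% of cells in Trpv1-ADC mice against 16.7% and 12.3% in CTRL mice, naive CD8 T cells 14.3% and 18.9% against 10.8% and 7.90%, and intraepithelial-type T cells 6.32% and 4.68% against 10.1% and 13.9%. With the UMI shares of the 14 tested classes held at their mean over the 4 mice, the log2 ratio of group means was 0.12 for Lef1, beside 0.57 as measured, and 0.02 for Tcf7, beside 0.26. It was -0.26 for Bach2 (as measured -0.01), -0.29 for Satb1 (0.01) and -0.36 for Myb (0.04). It was -0.17 for Id2 (-0.48), -0.32 for Foxo1 (-0.33) and 0.63 for Id3 (0.18). With shares held, Bach2 was at 1240 and 1159 CPM in Trpv1-ADC mice against 1473 and 1392 CPM in CTRL mice, and Id3 at 48.8 and 49.1 CPM against 28.5 and 34.8 CPM. The values with shares held and those as measured are descriptions of 2 mice a group, with no test. Both cover the 14 tested classes only. Over all cells kept, which include the cells outside these classes, the edgeR estimate was -0.46 for Id3 (adjusted p = 0.19) and 0.10 for Bach2 (0.42). Both signs differ from those as measured over the tested classes. The part of the other cells in this was not tested. Over the 7 tested T cell classes alone, the log2 ratio with shares held was -0.31 for Id2 and -0.32 for Foxo1, with no test. The edgeR estimates in the pool of all T cells, which holds further cells, were -0.62 for Id2 and -0.42 for Foxo1.

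**Figure D5:**
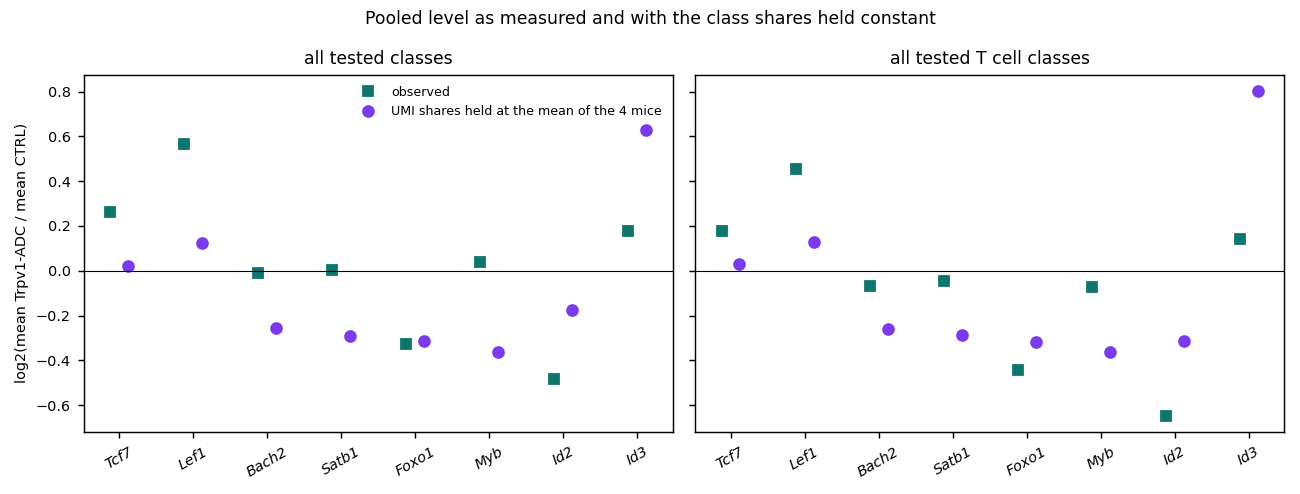
Log2 ratio of the mean Trpv1-ADC level to the mean CTRL level (y axis) for each factor, as measured (squares) and with the UMI shares of the cell classes held constant (circles), over all tested classes (left) and T cell classes (right). With shares held, Lef1 and Tcf7 move towards 0 and Bach2, Satb1 and Myb away from it.

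Whether a difference was larger in 1 class than in another was tested as an interaction with the mouse as a block, for each called pair against the other lymphoid or myeloid classes. Of 35 such comparisons, 9 passed. In the pairs of classes where no factor passed, few of the tested genes were called. For intraepithelial-type T cells it was 0.0568% against effector or memory CD4 T cells, 0.114% against ILC2, 0.527% against follicular helper, 0.569% against memory CD8 T cells and 0.975% against NK cells or ILC1. For regulatory T cells it was 0% against ILC2, 0.127% against follicular helper, 0.146% against effector or memory CD4 and 0.422% against memory CD8 T cells, and it was 0.367% for macrophages against monocytes. The Bach2 fold change in intraepithelial-type T cells minus that in regulatory T cells was -0.92 ± 0.15 (edgeR adjusted p = 0.000545; 1.96% of 10662 genes called). Minus that in naive CD4 T cells, whose clusters T1 and T3 were unequally filled, it was -0.62 ± 0.13 (0.028; 0.935% called), and minus that in naive CD8 T cells -0.63 ± 0.13 (0.025; 0.954% called). Against effector or memory CD4 T cells the difference was 0.11 and did not pass (0.97). For Myb the difference from regulatory T cells was -1.14 ± 0.28 (0.023), and the other 7 comparisons of Myb and all 8 of Satb1 did not pass (Satb1 estimates -0.61 to 0.26). The Id2 fold change in regulatory T cells minus that in naive CD4 T cells was -0.84 ± 0.14 (0.0062; 0.156% called). Minus that in naive CD8 T cells it was -0.63 ± 0.15 (0.032; 0.267% called), and minus that in the mixed class of NK cells or ILC1 -0.67 ± 0.15 (0.035; 0.395% called). At resolution 2, the Id2 fold change was 0.03 in NK cells or ILC1 and -0.07 in ILC3-like cells. In macrophages, whose clusters were unequally filled, the Id2 fold change minus that in cDC1 was -1.50 ± 0.27 (0.031, with 0.186% called). Minus that in cDC2 it was -1.60 ± 0.30 (0.025, with 0.208% called), while against monocytes it was -0.22 and did not pass (0.93). With macrophage cluster shares held, the Id2 log2 ratio between the groups was -0.39, beside -0.87 as measured. The interaction with shares held was not tested. Without CTRL 1, 2 of the 35 passed, Bach2 against regulatory and Id2 in regulatory against naive CD4 T cells; without CTRL 2 it was 4, and without Trpv1-ADC 1 it was 16.

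Partners, pathway members and related differentiation genes of the 8 factors were counted from lists. All list counts of intraepithelial-type T cells stand beside 4.12% of all tested genes called lower and 4.1% called higher. In intraepithelial-type T cells, 2 of 18 tested naive and recirculating lymphocyte genes fell and 2 rose (median log2 change -0.17; 0.00 over all genes): the lymph node homing receptor Ccr7 (-0.98) and the egress receptor S1pr1 (-0.90) fell, while Klf2 (0.70), the factor that drives S1pr1, and Ikzf1 (0.47) rose. Klf2 had 280 and 280 CPM in Trpv1-ADC mice against 140 and 189 CPM in CTRL mice, and Ccr7 25.3 and 30.5 CPM against 53.1 and 51.9 CPM. Of 19 FOXO pathway genes, 2 fell, the PI3 kinase subunit Pik3r1 (-0.70) and the death gene Bcl2l11 (-0.76), and 4 rose, with Pik3cd (0.60) and Klf2 among them (median 0.08). Of 19 TCF/LEF and Wnt genes, Myc rose (1.09) and Ctnnb1 (-0.59), which encodes beta-catenin, fell (median -0.02). These counts, 1 of 19 in each direction, were near the shares of all genes. 0 of 7 E protein and HLH genes passed (median 0.28).

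Of 18 tested effector differentiation factors in intraepithelial-type T cells, 3 fell, Zeb2 (-1.16), Bhlhe40 (-0.84) and Stat4 (-0.86), and 2 rose, with Gata3 at 0.72 (median -0.09). Zeb2 had 157 and 134 CPM in Trpv1-ADC mice against 312 and 315 CPM in CTRL mice. Of 10 BACH partner and heme response genes, the ferritin chain Fth1 (-0.51) and the small Maf protein Maff (-0.76) fell (median -0.21), and of 11 cell cycle genes Cenpa (-1.58) and Hmgb2 (-0.93) fell (median -0.40). In macrophages 4 of 14 effector factors fell, Prdm1 (-1.14), Runx3 (-1.07), Nfil3 (-0.85) and Bhlhe40 (-1.24), as did the BACH partner Mafk (-1.15) and Bach1 (-0.86), 2 of 10 in that list; no gene of these 2 lists rose there, where 0.761% of all genes did. Their medians were -0.47 and -0.44, against 0.01 over all genes. Of 9 cell cycle genes in macrophages 2 fell, Pcna (-0.99) and Cenpa (-1.30), with a list median of 0.03. Of 19 FOXO pathway genes 1 fell, Sgk1 (-0.99), with a median of 0.06. Of 18 TCF/LEF and Wnt genes 1 fell, Myc (-1.49), with a median of 0.19. Of 15 stress genes 2 rose, Hspa1a (1.08) and Hspa1b (0.81), with a median of 0.24. Among all genes tested there, 2.81% were called lower.

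In regulatory T cells no list gene was called except the immediate early gene Fosb (-0.66), 1 of 15 stress genes. Of the 18 effector factors there none was called (median -0.18), and 0.197% of all genes rose. In the pool of all T cells, Slamf6 (0.44), a receptor of stem-like T cells, Ikzf1 (0.37) and Nsg2 (0.38) rose among 20 naive genes (median 0.26; 0.387% of all genes rose), and Bhlhe40 (-0.69), Ikzf2 (-0.50) and Rora (-0.51) fell among 19 effector factors (median -0.15). These pool values move with the class shares given above.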

How the data were processed

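The deposited files hold raw UMI counts per gene and cell barcode, and counts of the 4 mouse tags per barcode; per the submitters' processing notes, Cell Ranger, Seurat and the mm10 build were used, in versions not given in the sources used here. The labels name both a 5′ and a 3′ droplet chemistry. Of 23063 barcodes, 22729 had at least 500 UMIs, 200 genes and at most 10% mitochondrial UMIs. A cell was given to the mouse of its top tag (at least 10 counts and 3 times the next), which left 19571, and 2052 that Scrublet called doublets (threshold 0.375) were removed, so that 17519 remained. Cells were clustered with scanpy 1.11.5 (2000 variable genes without the 8 factors, 30 components, 15 neighbours, Leiden resolution 1, leidenalg 0.10.2) and named from marker lists. The naming rule was settled after the clusters had been seen, and the 8 factors and all lists were chosen with earlier results of these data known.

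Summed UMIs of each class, 1 sum for each mouse, entered edgeR 4.0.16 (TMM, its low-count filter, robust quasi-likelihood fit, Benjamini-Hochberg over all genes of a class, threshold 0.05). DESeq2 1.42.0 and Seurat 5.3.0 (HTODemux, quantile 0.99) served as alternatives, beside other normalization, filters, doublet and clustering settings, a replicate block and leaving out each mouse. The scripts were tested on simulated data. All 8 factors were described in every tested class; for each, the 5 genes most like it were named, and of each list, in classes with a passing factor, up to 4 genes with the lowest p among those past the threshold. Intervals and floors cover counting error only, and fewer cells of a kind within a class and less RNA per cell cannot be told apart in its sums.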

Additional observations from a re-analysis of the deposited data

Results flagged for a closer look

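9 differences between classes in the size of the Trpv1-ADC to CTRL fold change passed the interaction test. Each is given as a difference of log2 fold changes. The classes were taken whole, and the groups filled the clusters of macrophages and of naive CD4 T cells unequally. For Bach2, intraepithelial-type T cells differed from regulatory T cells by -0.92, from naive CD4 T cells by -0.62 and from naive CD8 T cells by -0.63. The first passed without any 1 mouse, with edgeR adjusted p up to 0.0496; the second did not pass without CTRL 1 (0.54) or CTRL 2 (0.075), nor the third without CTRL 1 (0.66) or CTRL 2 (0.44). For Myb, intraepithelial-type T cells differed from regulatory T cells by -1.14, and not past the threshold without CTRL 1 (-0.92, 0.34).

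For Id2, regulatory T cells differed from naive CD4 T cells by -0.84, which passed without any 1 mouse (-0.96 to -0.73). They differed from naive CD8 T cells by -0.63, which passed without Trpv1-ADC 2 but not without Trpv1-ADC 1 (adjusted p = 0.17), CTRL 1 (0.12) or CTRL 2 (0.18). They differed from NK cells or ILC1 by -0.67, which passed without Trpv1-ADC 2 but not without Trpv1-ADC 1 (0.051), CTRL 1 (0.46) or CTRL 2 (0.086). Macrophages differed in Id2 from cDC1 by -1.50, which passed without Trpv1-ADC 1 but not without Trpv1-ADC 2 (0.21), CTRL 1 (0.43) or CTRL 2 (0.36), and from cDC2 by -1.60, which passed without CTRL 2 but not without Trpv1-ADC 1 (0.13), Trpv1-ADC 2 (0.24) or CTRL 1 (0.13).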

How the results depend on the processing

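Of 99 tested pairs of factor and class, 5 passed. The count was 19 with no low-count filter, 8 with only tag doublets removed and 5 to 20 with 1 mouse left out (20 without Trpv1-ADC 1, 17 without CTRL 2). It was 5 to 7 with the other planned normalization, test, tag, cell filter and clustering settings. Over all cells 0 passed, against 3 with no low-count filter, 4 with DESeq2 and 0 to 1 with 1 mouse left out. Over all T cells 2 passed, against 1 without the robust option and 1 to 3 with 1 mouse left out. Of 35 comparisons between classes 9 passed, and 2 to 16 with 1 mouse left out. The class with the highest level was the highest for 4 of 8 factors by the unthinned share of cells with a UMI, and for 7 by the share at 2000 UMIs; the unthinned share moves with depth. The causes of the other changes were not tested.

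The replicate numbers only name the mice: same-numbered mice had deviations correlated at -0.08 to 0.12 within classes and -0.16 over all T cells. A replicate block gave 14 passing pairs by class, 2 over all cells and 1 over all T cells. The crossed pairing, chosen after seeing the data, gave 12, 0 and 3. The fits within the naive CD4 clusters T1 and T3 were also chosen after seeing the data.

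For single factors, alternative values were counted only where the main edgeR adjusted p in a class or pool was under 0.1, and for Id3 in naive CD4 T cells. Of these values, 162 kept their side of the threshold, 29 newly passed, 19 no longer passed and 0 changed sign. As the pairs were chosen by their main value, these counts do not describe the other tested pairs. No setting held the class shares of a pool constant. Bach2 in intraepithelial-type T cells passed in 17 of 17 settings (-1.003 to -0.74), Id2 over all T cells in 13 of 13 and in regulatory T cells in 15 of 17. Satb1 and Myb in intraepithelial-type T cells passed in 14 and 13 of 17, Id2 in macrophages in 9 of 15 and Foxo1 over all T cells in 9 of 13. With 2 mice a group, and 88 to 234 macrophages and 212 to 581 intraepithelial-type T cells per mouse, small differences were not detectable at this depth.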

Other observations

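A T cell cluster of 88 cells that could not be named, led by Hdac9, Myb, Eomes, Sox4 and Trdc, had the highest mean Myb level of any class or unnamed cluster, 1448 and 857 CPM in Trpv1-ADC mice and 1380 and 1640 CPM in CTRL mice. Myb is one of its leading genes, so the level describes the cluster. Bach2 there was 2153 and 1210 CPM in Trpv1-ADC mice and 2132 and 2235 CPM in CTRL mice, and Satb1 1894 and 1154 CPM in Trpv1-ADC mice and 2054 and 1398 CPM in CTRL mice. The cluster held 31 and 13 cells in Trpv1-ADC mice and 28 and 16 in CTRL mice, too few to test.

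Migratory dendritic cells, 71 cells in all, had Id2 at 2468 and 1179 CPM in Trpv1-ADC mice and 1192 and 692 CPM in CTRL mice, a mean above that of any tested class. Outside the immune cells, Id3 was at 599 and 385.5 CPM in fibroblasts of Trpv1-ADC mice and 574 and 909 CPM in those of CTRL mice, above its level in any tested immune class.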
